A study of Homo sapiens with 6 samples.

Results

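This account covers 41 human genes for RNA-binding proteins that regulate splicing, chosen by symbol from a list and matched to their Ensembl identifiers. They were 41 of the 67026 genes in the count table. They fall into 4 families: 3 PTBP genes, 17 hnRNP genes, 12 SR genes (the SRSF genes with TRA2A and TRA2B) and 9 other regulators. The tissue was subcutaneous xenograft tumour of PC-3, a cell line from a human prostate carcinoma metastasis, grown with Matrigel in male NSG mice, a strain that lacks lymphocytes but keeps myeloid cells, vessels and stroma. The mice were 4 to 5 weeks old per the labels. The shVCAN group carried a lentiviral hairpin against VCAN, the gene for the matrix proteoglycan versican. The shGFP group carried a hairpin against GFP and was the knockdown control, and the cells of both groups had been selected with puromycin. Each group had 3 samples, titled by xenograft, group and number, and each is taken here as a separate tumour. The labels do not say how many hairpin sequences or cell clones stood behind a group. The question put to the counts is how the messenger RNA of these regulators differs under versican knockdown.

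Splicing removes introns from a primary transcript, and regulators that bind the transcript decide which exons are kept. The PTBP proteins bind pyrimidine-rich RNA and mostly repress exons, hnRNP proteins coat nascent RNA and often silence exons, and SR proteins bind exonic enhancers and recruit the spliceosome. Many of these genes control their own level through alternative exons that introduce an early stop codon, so that the transcript is destroyed by nonsense-mediated decay. In the cells of most tissues PTBP1 promotes skipping of a short exon of its own transcript and of that of its neuronal paralog PTBP2, and either skipped transcript is a substrate of this decay. The deposited counts are per gene, so no exon inclusion was measured here.

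The exon in question is shown because the main difference below lies in these paralogs. GENCODE 29 (GRCh38) gives each PTBP gene an exon of 34 bases at this place, printed 5′ to 3′ with the bases that are identical in all 3 genes in capitals.
PTBP1: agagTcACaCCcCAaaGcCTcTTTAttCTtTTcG
PTBP2: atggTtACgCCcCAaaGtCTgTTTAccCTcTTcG
PTBP3: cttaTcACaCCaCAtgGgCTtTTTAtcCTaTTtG
The PTBP1 exon lies on chromosome 19 (807869 to 807902, plus strand), the PTBP2 exon on chromosome 1 (96806419 to 96806452, plus strand) and the PTBP3 exon on chromosome 9 (112231380 to 112231413, minus strand). The 3 exons share 19 of 34 bases, and the pair PTBP2 and PTBP1 shares 25. A length that is not a multiple of a codon shifts the reading frame when the exon is skipped. Of the annotated PTBP1 transcripts 6 hold the exon and 5 skip it, 2 of those 5 being annotated as targets of nonsense-mediated decay. The other 3 that skip it are annotated as coding. Of the PTBP2 transcripts 6 hold the exon and 3 skip it, with 0 of those 3 annotated as targets of decay or as coding, and of the PTBP3 transcripts 5 hold it and none (0) skips it.

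The libraries held 12959840 to 13327617 counts in shVCAN and 11253058 to 12936539 in shGFP. Values are CPM on TMM-scaled library sizes. Log2 fold changes are shVCAN over shGFP, from edgeR's quasi-likelihood test across 16254 genes, and a gene is called at a Benjamini-Hochberg adjusted p under 0.05. VCAN had 69, 39 and 44 counts in the shVCAN tumours and 133, 104 and 121 counts in the shGFP tumours (log2 fold change −1.53, SE 0.207, adjusted p = 4.59e-07). Permuting the 6 tumour labels over its CPM gave an exact two-sided p = 0.1, below which a design of this size cannot go. Across the transcriptome 40.3% of tested genes were called, 19.2% higher and 21.1% lower in shVCAN. The 13 mitochondrial messenger RNAs held 6.39% to 7.63% of counts in shVCAN and 13.3% to 16.2% in shGFP. Of 10 fibroblast and pericyte markers 7 were tested, 4 fell and 1 (RGS5) rose. The list summed to 386.8 to 481.7 CPM in shVCAN and 817.0 to 918.3 CPM in shGFP, with THY1 at 0 in all tumours. Most of that sum was the single gene COL1A1, at a mean of 300.5 CPM in shVCAN and 618.8 CPM in shGFP. Of 10 endothelial markers 6 were tested and 5 fell. The endothelial list summed to 111.8 to 126.1 CPM in shVCAN and 172.3 to 180.1 CPM in shGFP. Most of that sum was TIE1, KDR and PECAM1, with TIE1 at a mean of 64.6 CPM in shVCAN and 84.7 CPM in shGFP. CDH5 had a mean of 0.885 CPM in shVCAN and 5.87 CPM in shGFP, and VWF, CLDN5, ERG and EMCN had too few counts to be tested. Whether the endothelial sum reflects endothelial cells was not tested. Of 10 macrophage markers 3 were tested and 1 fell, the list summed to 1.81 to 3.28 CPM in shVCAN and 4.29 to 7.06 CPM in shGFP, and AIF1 and the C1Q genes were at 0. An entry at 0 in these lists need not be a level, because genes that cells generally need, such as LSM2, were also listed at 0. Of 11 genes of PC-3 and prostate epithelial identity 8 were tested, and KRT8 (−0.19), KRT18 (−0.54) and EPCAM (−0.29, log2 fold change) fell, while the prostate genes KLK2 and KLK3 were at 0 counts. The part of these shifts in the results below was not tested, and in bulk tumours fewer cells of a type and less RNA per cell cannot be told apart. The sources used here do not say whether mouse reads were removed, so reads of mouse splicing regulators that align to the human genes may be included.

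PTBP2 and PTBP1 showed the widest differences among the members, while that of PTBP3 was in the range of several SR genes. PTBP1 was lower and PTBP2 and PTBP3 were higher in shVCAN tumours, with no overlap between groups for any of them. PTBP1 (ENSG00000011304, chromosome 19, 797075 to 812327), the form found in most tissues, had 172.4, 183.6 and 177.0 CPM in the shVCAN tumours and 317.8, 318.6 and 332.4 CPM in the shGFP tumours. Every shVCAN tumour lay far below every shGFP tumour, and the tumours of a group lay close together. The mean was 177.7 ± 5.63 CPM in shVCAN and 322.9 ± 8.20 CPM in shGFP (SD, n = 3 each), a ratio of 0.550 (log2 fold change −0.86, SE 0.0508, adjusted p = 1.68e-14).

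PTBP2 (ENSG00000117569, chromosome 1, 96721665 to 96823738), the paralog known for neurons and testis, had 83.8, 75.9 and 77.3 CPM in the shVCAN tumours and 22.5, 20.5 and 23.5 CPM in the shGFP tumours. It was low in all 3 shGFP tumours and several times higher in all 3 shVCAN tumours. The mean was 79.0 ± 4.23 CPM in shVCAN and 22.2 ± 1.5 CPM in shGFP, a 3.56-fold rise (log2 fold change 1.83, SE 0.0830, adjusted p = 4.07e-17). Of the 16254 tested genes 84 had a larger log2 fold change than PTBP2, and 662 had a lower one than PTBP1. PTBP2 was the only member that was called with at least a 2-fold difference (1 of 39 tested members, or 2.56%, where 5.44% of all tested genes passed both limits).

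PTBP3 (ENSG00000119314, chromosome 9, 112217716 to 112333667), first known from blood cells under the name ROD1, had 75.6, 72.3 and 81.2 CPM in the shVCAN tumours and 55.8, 65.4 and 64.1 CPM in the shGFP tumours. The groups were apart, but the gap was small beside that of PTBP2. It rose 1.24-fold (log2 fold change 0.31, SE 0.0738, adjusted p = 0.0012). PTBP1 and PTBP2 stood at the ends of the called members in GC content (61.7% and 34.7% of the longest transcript), and with an offset fitted to exonic length and GC their log2 fold changes were −0.67 and 1.78. All 3 PTBP calls held in each of the 16 other settings tried, where the log2 fold change ran from −0.89 to −0.67 for PTBP1, from 1.78 to 2.00 for PTBP2 and from 0.24 to 0.47 for PTBP3.

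**Figure D1:**
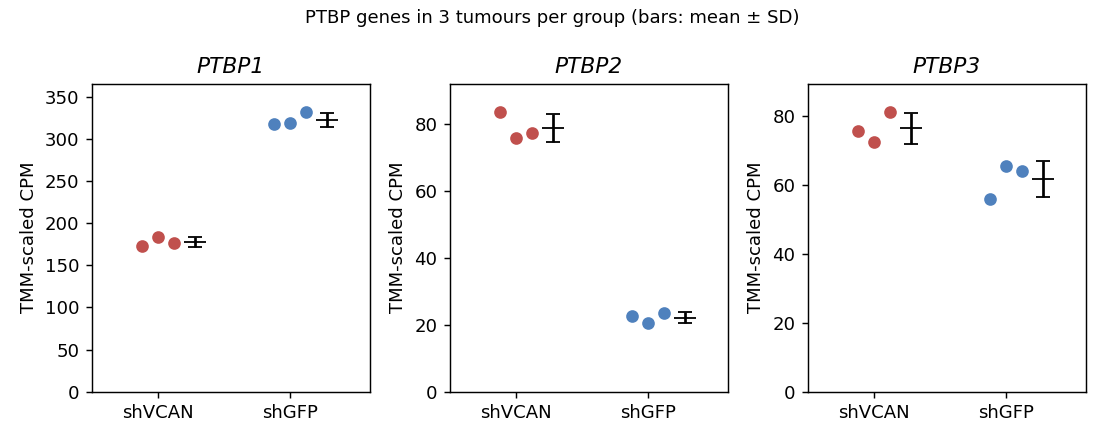
TMM-scaled CPM of PTBP1, PTBP2 and PTBP3 in each tumour (points), shVCAN left of shGFP, with the mean and SD of 3 tumours beside them. The shVCAN tumours lie between 172.4 and 183.6 CPM for PTBP1 and between 75.9 and 83.8 CPM for PTBP2, apart from all shGFP tumours.

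Per length, the balance of the 3 paralogs differed between groups. In RPKM, which is CPM per kilobase of exon, PTBP1 remained the most abundant of the 3 in every tumour, at 25.8 ± 0.818 RPKM in shVCAN and 46.9 ± 1.19 RPKM in shGFP. PTBP2 stood at 6.11 ± 0.327 RPKM in shVCAN and 1.71 ± 0.116 RPKM in shGFP. PTBP3 stood at 9.27 ± 0.550 RPKM in shVCAN and 7.50 ± 0.633 RPKM in shGFP. The RPKM ratio of PTBP2 to PTBP1 was 0.259, 0.220 and 0.232 in the shVCAN tumours and 0.0376, 0.0343 and 0.0376 in the shGFP tumours. PTBP2 thus held 14.2% to 15.9% of the summed PTBP RPKM in shVCAN and 2.84% to 3.18% in shGFP, while the share of PTBP1 was 61.5% to 64.6% in shVCAN and 82.9% to 84.4% in shGFP. The sum itself was lower in shVCAN, at 41.2 ± 0.441 RPKM against 56.1 ± 1.63 RPKM in shGFP. The length used was that of all annotated exons joined, 6883 bases for PTBP1, 12937 for PTBP2 and 8239 for PTBP3. Expressed transcripts may be shorter, so the shares, the ratio and the sum depend on that choice. By CPM too PTBP1 was the highest of the 3 in every tumour.

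**Figure D2:**
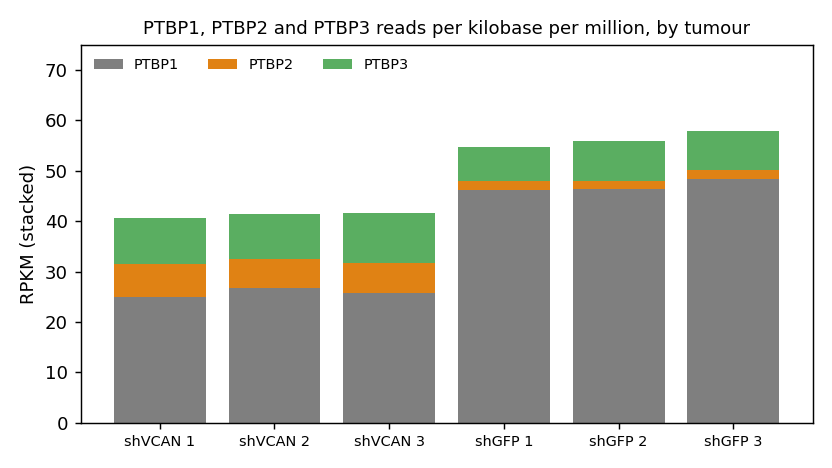
Stacked RPKM of PTBP1, PTBP2 and PTBP3 (vertical axis) in the 3 shVCAN and 3 shGFP tumours. The total is 40.7 to 41.6 RPKM in shVCAN and 54.7 to 57.9 RPKM in shGFP, and the PTBP2 segment is taller in every shVCAN tumour.

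Over all families 39 of the 41 members had enough counts to be tested, and 12 rose, 11 fell and 16 were not called. The called share was 59.0% of tested members against the 40.3% of all tested genes. Most members are abundant, and abundant genes are called more often: of the 37 members with a mean of at least 50 CPM 21 were called (56.8%), 11 higher and 10 lower, and of all 4181 tested genes at that level 63.5% were called, 27.2% higher and 36.3% lower. The median log2 fold change was 0.025 for the tested members and 0.001 for all tested genes. The groups did not overlap in 31 of the 39 members (48.7% of all tested genes), with shVCAN above in 17 (23.9% of all) and below in 14 (24.8% of all). The share without overlap was not computed for tested genes of at least 50 CPM, the level of most members, so an excess cannot be read from it. Apart from PTBP2, PTBP1 and RBFOX2, the tested members (36 of 39, 92.3%) were under 1.5-fold in either direction, as were 91.0% of all tested genes of at least 50 CPM. When libraries were scaled by size alone, 22 members rose and 5 fell, which raised the share of higher calls from 52.2% to 81.5%, and the median of all tested genes lay at 0.168.

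**Figure D3:**
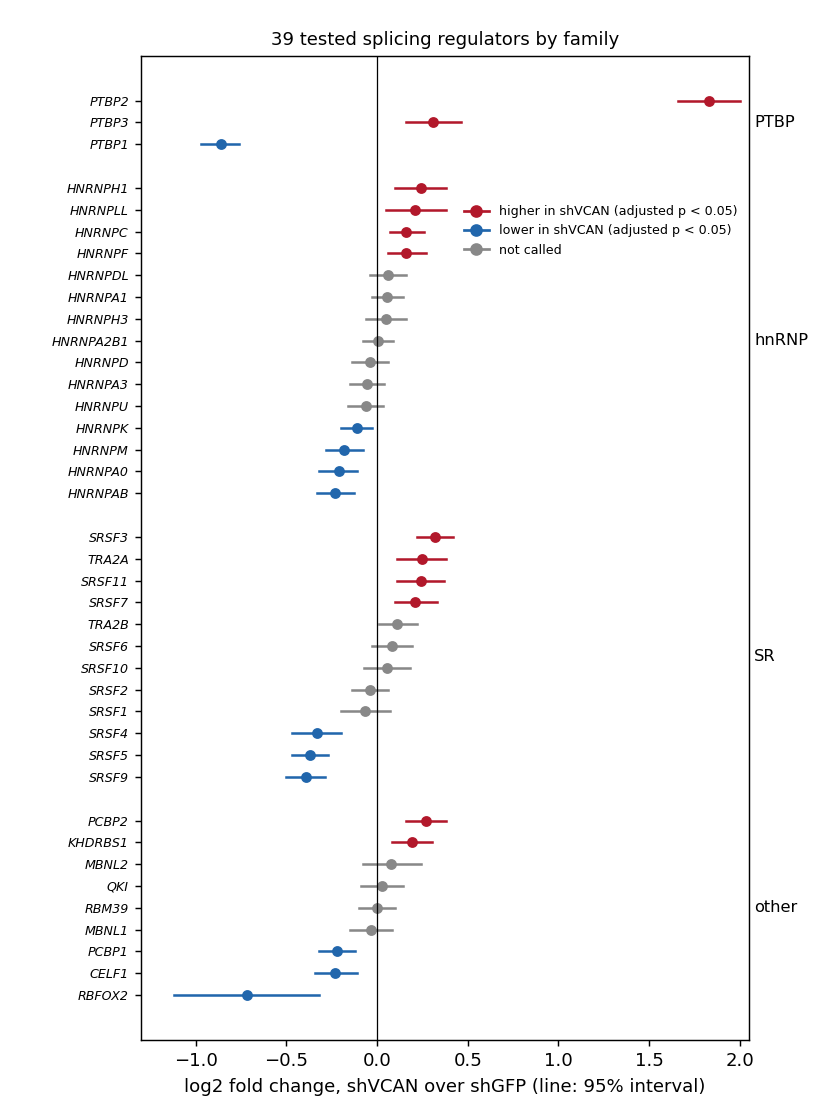
Log2 fold change of the 39 tested members, shVCAN over shGFP (points) with 95% intervals (lines), ordered within each family and coloured by call. PTBP2 at 1.83 and PTBP1 at −0.86 stand at the ends, and the hnRNP genes lie between −0.23 and 0.24.

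**Figure D4:**
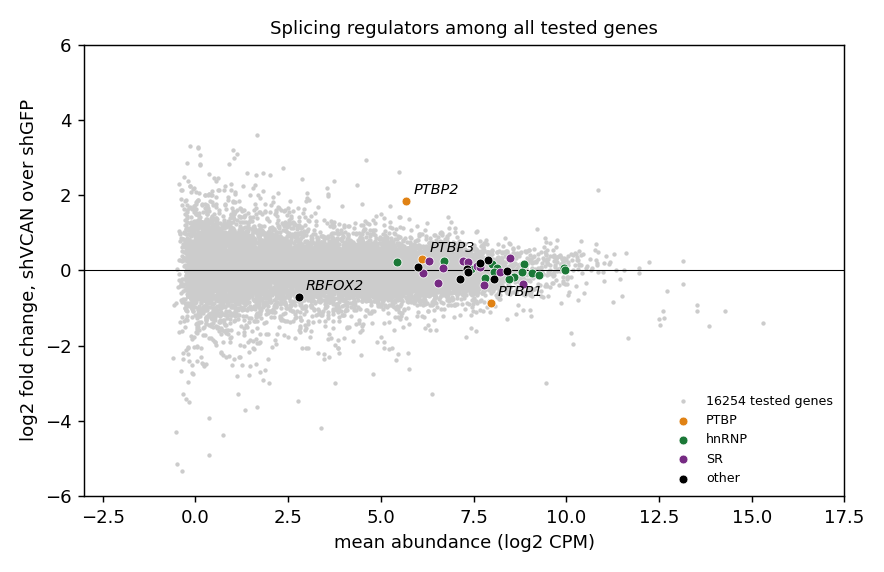
Log2 fold change, shVCAN over shGFP, against mean abundance in log2 CPM for 16254 tested genes (grey) with the members coloured by family. The hnRNP and SR genes sit in the narrow band of abundant genes, and PTBP2 at 1.83 lies above it.

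Among the hnRNP genes 15 of 17 were tested, 4 rose, 4 fell and 7 were not called, with a median log2 fold change of 0.006 (0.001 over all tested genes). Those shares of 26.7% higher and 26.7% lower compare with 19.2% and 21.1% of all tested genes and with 27.2% and 36.3% of those of at least 50 CPM. Scaling by library size alone gave 8 higher hnRNP genes and left the other 7 tested not called. Their summed level was 6107 ± 41.1 CPM in shVCAN and 6177 ± 47.0 CPM in shGFP. The family's share of raw counts was 0.640% to 0.652% in shVCAN and 0.570% to 0.590% in shGFP, a measure that also moves with the mitochondrial share given above. The 4 that rose were HNRNPH1, HNRNPLL, HNRNPC and HNRNPF, and the 4 that fell were HNRNPAB, HNRNPA0, HNRNPM and HNRNPK.

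HNRNPC, which binds uridine tracts and keeps cryptic exons silent, had 474.7, 483.8 and 506.4 CPM in the shVCAN tumours and 431.5, 445.0 and 430.3 CPM in the shGFP tumours. The groups were apart at a ratio of 1.12 (log2 fold change 0.16, SE 0.0458, adjusted p = 0.00448). HNRNPF and HNRNPH1 bind runs of guanines. HNRNPF had 270.5, 261.7 and 274.1 CPM in the shVCAN tumours and 239.1, 240.4 and 239.7 CPM in the shGFP tumours, which hardly varied among themselves (log2 fold change 0.16, SE 0.0493, adjusted p = 0.0079). With an offset fitted to exonic length and GC its log2 fold change was 0.10 and the call was lost (adjusted p = 0.0681). HNRNPH1 had 113.7, 100.3 and 123.0 CPM in the shVCAN tumours and 99.3, 93.5 and 92.2 CPM in the shGFP tumours (log2 fold change 0.24, SE 0.0685, adjusted p = 0.0052). The lowest shVCAN value of HNRNPH1 was only just above the highest shGFP value, and without shVCAN tumour 3 its call was lost (adjusted p = 0.0701).

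HNRNPAB, an A/B-type RNA-binding protein, had 325.8, 323.7 and 317.2 CPM in the shVCAN tumours and 375.7, 393.6 and 365.6 CPM in the shGFP tumours (log2 fold change −0.23, SE 0.0476, adjusted p = 0.000221). HNRNPA0, a binder of AU-rich messenger RNA, had 211.7, 204.1 and 209.6 CPM in the shVCAN tumours and 236.7, 251.0 and 237.1 CPM in the shGFP tumours (log2 fold change −0.21, SE 0.0512, adjusted p = 0.00121). HNRNPM, known for exon skipping during epithelial-mesenchymal transition, had 364.7, 376.6 and 346.4 CPM in the shVCAN tumours and 402.7, 410.9 and 420.6 CPM in the shGFP tumours (log2 fold change −0.18, SE 0.0476, adjusted p = 0.00265). All 3 were lower in every shVCAN tumour than in every shGFP tumour. These 3 calls were lost with library size alone (adjusted p = 0.336, 0.533 and 0.842), and that of HNRNPM also with a length and GC offset (log2 fold change −0.035, adjusted p = 0.556).

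The remaining called hnRNP genes were near the threshold. HNRNPK, a binder of cytosine-rich RNA, averaged 590.4 ± 11.1 CPM in shVCAN and 638.9 ± 10.2 CPM in shGFP (log2 fold change −0.11, adjusted p = 0.0355), and lost its call when any single tumour was left out (adjusted p from 0.0654 to 0.136). The call of HNRNPK held in 7 of the 16 other settings and was also lost with library size alone (log2 fold change 0.052, adjusted p = 0.403). HNRNPLL, known for the alternative exons of CD45 in lymphocytes, averaged 46.2 ± 2.11 CPM in shVCAN and 40.0 ± 1.88 CPM in shGFP (log2 fold change 0.21, adjusted p = 0.0378). Its call held in 10 of the 16 other settings. Among the losses were those without shVCAN tumour 1 or 3 or shGFP tumour 1 or 3 (adjusted p from 0.0568 to 0.144) and with the length and GC offset (adjusted p = 0.107).

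The exon silencers HNRNPA1 and HNRNPA2B1 had the highest CPM of the family and were not called. HNRNPA1, which per length was the most abundant of all members, had 990.4, 1009 and 1003 CPM in the shVCAN tumours and 949.4, 951.5 and 989.6 CPM in the shGFP tumours. The groups did not overlap, yet the 95% interval of its log2 fold change ran from −0.03 to 0.14 (adjusted p = 0.315). HNRNPA2B1 had 1027, 989.8 and 1017 CPM in the shVCAN tumours and 1014, 982.6 and 1025 CPM in the shGFP tumours, which overlapped (interval −0.08 to 0.09, adjusted p = 0.928). The intervals of the 5 others that were not called, HNRNPA3, HNRNPD, HNRNPDL, HNRNPH3 and HNRNPU, lay within −0.16 to 0.16. With the length and GC offset HNRNPA3 (−0.13, adjusted p = 0.0126) and HNRNPD (−0.12, adjusted p = 0.0493) were called lower. HNRNPDL, HNRNPH3 and HNRNPU stayed not called with that offset. HNRNPL and HNRNPR could not be tested. HNRNPL was listed at 1 count over all 6 tumours and HNRNPR at 0. Other genes that cells generally need were also listed at or near 0, such as the spliceosome protein PRPF8 with 1 count and LSM2 with 0, so these entries give no level.

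Among the 12 SR genes, all tested, 4 rose, 3 fell and 5 were not called, with a median log2 fold change of 0.066. Over all tested genes of at least 50 CPM 27.2% were higher and 36.3% lower, beside 33.3% of the SR genes higher, and library size alone gave 7 higher and 3 lower. SRSF3, the smallest SR protein and an adaptor for RNA export, had 393.5, 389.5 and 416.5 CPM in the shVCAN tumours and 311.5, 320.4 and 327.3 CPM in the shGFP tumours. It had the largest rise of the family, 1.25-fold, with the groups well apart (log2 fold change 0.32, SE 0.0479, adjusted p = 2.37e-06). SRSF7, which shares the export role, had 177.6, 166.7 and 178.6 CPM in the shVCAN tumours and 150.5, 152.5 and 147.7 CPM in the shGFP tumours (log2 fold change 0.21, SE 0.0547, adjusted p = 0.00211). SRSF11 had 161.1, 148.0 and 175.6 CPM in the shVCAN tumours and 146.0, 130.8 and 132.4 CPM in the shGFP tumours (log2 fold change 0.24, SE 0.0631, adjusted p = 0.00246). The groups of SRSF11 were apart by a narrow margin. TRA2A, an activator related to the fly sex-determination factor Transformer-2, averaged 84.5 ± 3.41 CPM in shVCAN and 71.2 ± 4.24 CPM in shGFP (log2 fold change 0.25, adjusted p = 0.0042). Under an offset fitted to exonic length and GC the calls of SRSF7 (adjusted p = 0.0645) and TRA2A (adjusted p = 0.227) were lost.

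SRSF9, SRSF5 and SRSF4 fell. SRSF9 had 199.7, 192.4 and 181.7 CPM in the shVCAN tumours and 247.7, 259.0 and 247.1 CPM in the shGFP tumours, a ratio of 0.761 (log2 fold change −0.39, SE 0.0527, adjusted p = 4.21e-07). Its value is uncertain because 46.2% of its annotated exonic bases are shared with the gene GATC. SRSF5 had 399.3, 410.7 and 387.3 CPM in the shVCAN tumours and 525.7, 482.1 and 537.3 CPM in the shGFP tumours, a ratio of 0.775 (log2 fold change −0.37, SE 0.0485, adjusted p = 3.27e-07). SRSF4, a close relative of SRSF5 and SRSF6 with a long arginine-serine tail, had 83.7, 83.9 and 77.5 CPM in the shVCAN tumours and 98.7, 104.2 and 106.3 CPM in the shGFP tumours (log2 fold change −0.33, SE 0.0638, adjusted p = 8.54e-05). No shVCAN tumour reached the level of any shGFP tumour in these 3 genes, and their calls held in all 16 other settings.

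SRSF2, per length the most abundant SR gene, had 291.8, 296.4 and 293.8 CPM in the shVCAN tumours and 297.8, 310.5 and 299.3 CPM in the shGFP tumours. It was not called, with an interval of −0.14 to 0.06 (adjusted p = 0.528), and 36.7% of its exonic bases are shared with other genes. SRSF1, known as a proto-oncogene and for the choice of splice sites, averaged 69.0 ± 2.15 CPM in shVCAN and 72.3 ± 2.11 CPM in shGFP (interval −0.20 to 0.07, adjusted p = 0.457), with 60.7% of its exonic bases shared. With the length and GC offset both were called lower (SRSF1 −0.23 with adjusted p = 0.00273, SRSF2 −0.16 with adjusted p = 0.0046). SRSF6 and SRSF10 were not called, with intervals of −0.03 to 0.19 and −0.07 to 0.18. TRA2B was not called either (log2 fold change 0.11, adjusted p = 0.0879), although the groups did not overlap and its interval was 0.01 to 0.22. It was called higher in 3 of the 16 other settings. Among them were the length and GC offset (0.17, adjusted p = 0.00445) and library size alone (0.28, adjusted p = 0.000145).

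**Figure D5:**
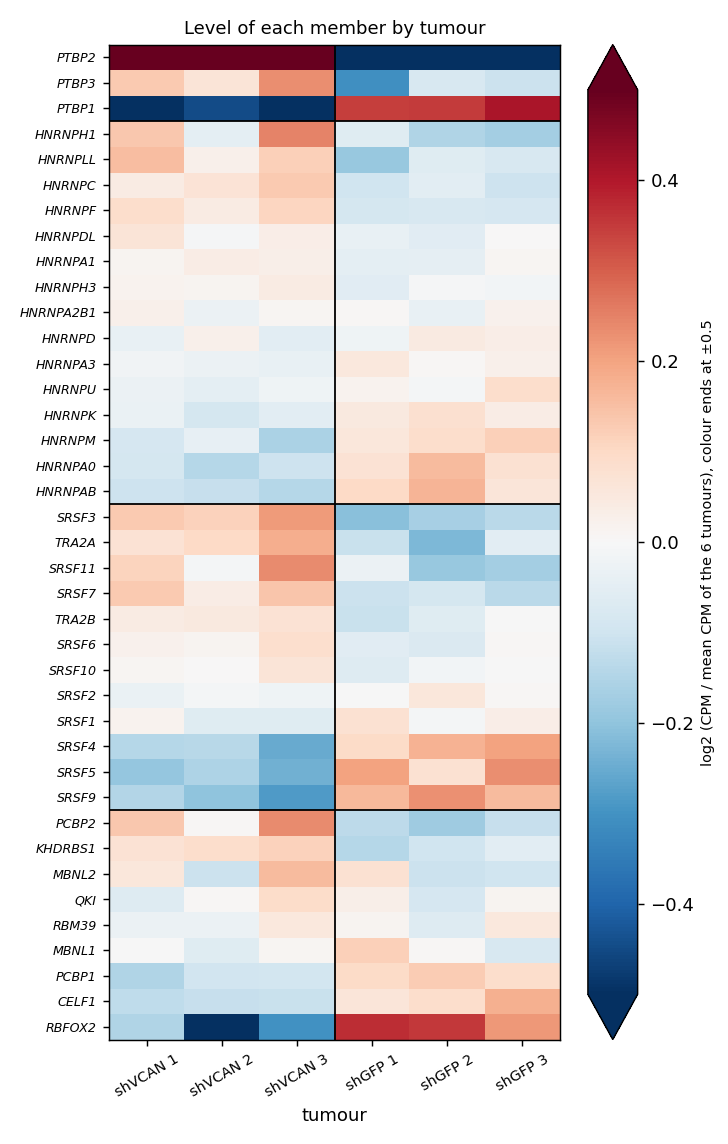
Level of each tested member in each tumour, as log2 of its CPM over the mean CPM of the 6 tumours, with shVCAN left of shGFP and lines between families. Colour ends at ±0.5, which PTBP2, PTBP1 and RBFOX2 pass, and the other rows differ by less.

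Of the 9 other regulators 2 rose, 3 fell and 4 were not called, with a median log2 fold change of −0.002. The shares are 22.2% higher and 33.3% lower. They compare with 19.2% and 21.1% of all tested genes and with 27.2% and 36.3% of those of at least 50 CPM. Library size alone gave 5 higher and 1 lower. PCBP1 and PCBP2, poly(C)-binding paralogs, were called in opposite directions. PCBP2 had 258.4, 236.3 and 276.9 CPM in the shVCAN tumours and 214.8, 207.8 and 217.5 CPM in the shGFP tumours (log2 fold change 0.27, SE 0.0557, adjusted p = 0.000231). PCBP1, per length the most abundant of this family, had 240.1, 249.1 and 250.0 CPM in the shVCAN tumours and 284.6, 290.6 and 283.3 CPM in the shGFP tumours (log2 fold change −0.22, SE 0.0489, adjusted p = 0.000654). The PCBP1 call was lost with library size alone (log2 fold change −0.05, adjusted p = 0.481), and 52.2% of the PCBP1 and 32.7% of the PCBP2 exonic bases are shared with other annotated genes.

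KHDRBS1, the signal-responsive regulator also called Sam68, had 216.2, 218.2 and 222.6 CPM in the shVCAN tumours and 186.2, 191.8 and 198.3 CPM in the shGFP tumours (log2 fold change 0.19, SE 0.0518, adjusted p = 0.00394). CELF1, a binder of GU-rich RNA, had 129.1, 130.3 and 130.6 CPM in the shVCAN tumours and 147.1, 150.0 and 159.5 CPM in the shGFP tumours (log2 fold change −0.23, SE 0.0565, adjusted p = 0.00167). The groups were apart for both genes, but CELF1 was not called with library size alone (adjusted p = 0.442) or with the length and GC offset (adjusted p = 0.339). RBFOX2, known for splicing in mesenchymal cells, was the least abundant tested member. It had 6.17, 3.81 and 5.55 CPM in the shVCAN tumours and 8.83, 8.73 and 7.95 CPM in the shGFP tumours, apart but from few reads (85, 54 and 76 counts against 106, 94 and 87). Its log2 fold change was −0.72 (SE 0.197, adjusted p = 0.00396) and stayed called in all 16 other settings. MBNL1 and MBNL2, the muscleblind regulators, QKI and the spliceosome-associated RBM39 were not called and their groups overlapped. Their 95% intervals lay within −0.15 to 0.24, and RBM39 was nearest to 0 (interval −0.10 to 0.10).

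Some features of the members were not used in choosing them. GENCODE 29 annotates at least 1 transcript subject to nonsense-mediated decay in 29 of the 41 members (70.7%), against 42.1% of the 13161 tested protein-coding genes. The members also had more annotated transcripts, with a median of 12 against 7, so more chances to carry one. RBM39 had the most (15 of 45 transcripts), HNRNPU had 9 of 31 and SRSF7 had 6 of 12. Such transcripts were annotated in 8 of the 12 members that rose, 6 of the 11 that fell and 13 of the 16 not called. The longest transcript had a median GC content of 39.2% in the members that rose, 45.7% in those that fell and 39.9% in those not called, and PTBP1 had the highest of all called members at 61.7%. Across the 39 tested members the log2 fold change had a Spearman correlation of −0.444 with GC content, and across 15997 tested genes one of −0.111. With exonic length it was 0.078 across the members and −0.227 across those 15997 genes. Genes share libraries and are not independent replicates, so these values carry no test. Processed pseudogenes can draw reads from abundant members: 74 annotated copies of HNRNPA1 held 1.35% as many counts as the gene, and 16 copies of HNRNPA3 held 3.48% as many. With such counts added to the members all 23 calls stood.

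The wider splicing machinery was read from lists of genes that are not members. Of 51 tested core spliceosome proteins (53 listed) 20 rose, 12 fell and 19 were not called, with a median log2 fold change of 0.085. The shares are 39.2% higher and 23.5% lower. They compare with 19.2% and 21.1% of all tested genes and with 27.2% and 36.3% of those of at least 50 CPM. Library size alone gave 31 higher and 3 lower. The Sm ring proteins, which surround the small nuclear RNAs, all rose (7 of 7), as did the 6 tested LSm proteins of the related ring on U6. This grouping was made after the values were seen. SNRPG averaged 170.4 ± 5.95 CPM in shVCAN and 83.8 ± 5.36 CPM in shGFP (log2 fold change 1.02, SE 0.0614, adjusted p = 2.74e-14). SNRPE averaged 128.9 ± 2.61 CPM in shVCAN and 87.4 ± 2.77 CPM in shGFP, a 1.47-fold rise. LSM7 averaged 141.7 ± 4.41 CPM in shVCAN and 84.8 ± 2.88 CPM in shGFP, a 1.67-fold rise. SF3B6, the small branch-point subunit of the U2 particle, averaged 110.1 ± 9.07 CPM in shVCAN and 69.2 ± 3.25 CPM in shGFP, a 1.59-fold rise. Of the 9 SF3A and SF3B genes 2 rose and 5 fell, and with library size alone 3 rose and 2 fell. Under the length and GC offset all 7 Sm and 6 LSm calls held, with log2 fold changes of 0.71 for SNRPG, 0.36 for SNRPE (0.56 without the offset) and 0.39 for SF3B6 (0.67 without it), and 2 of the SF3 genes rose and 3 fell.

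A list of the kinases and phosphatases that set SR protein phosphorylation, with the nuclear importers TNPO3 and TNPO1, moved both ways. Of 12 tested genes in that list 4 rose, 5 fell and 3 were not called (median −0.08). The shares are 33.3% higher and 41.7% lower. They compare with 19.2% and 21.1% of all tested genes and with 27.2% and 36.3% of those of at least 50 CPM. Library size alone gave 5 higher and 2 lower. CLK1 and CLK3, nuclear kinases of SR proteins, fell, with CLK1 at 78.8 ± 4.36 CPM in shVCAN and 101.5 ± 5.16 CPM in shGFP and CLK3 at 35.1 ± 3.19 CPM in shVCAN and 46.8 ± 1.99 CPM in shGFP. The log2 fold change of CLK3 was −0.41, and −0.21 with the length and GC offset. PPP1CB and PPP1CC, catalytic subunits of protein phosphatase 1, each rose 1.33-fold, with PPP1CC at 211.0 ± 5.40 CPM in shVCAN and 159.1 ± 11.3 CPM in shGFP and PPP1CB at 204.2 ± 21.1 CPM in shVCAN and 153.4 ± 2.83 CPM in shGFP.

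Of the 19 genes of nonsense-mediated decay and the exon junction complex 5 rose, 8 fell and 6 were not called (median −0.15). The shares are 26.3% higher and 42.1% lower. They compare with 19.2% and 21.1% of all tested genes and with 27.2% and 36.3% of those of at least 50 CPM. Library size alone gave 7 higher and 4 lower, and 2 rose without shVCAN tumour 1 and 3 without shGFP tumour 3. The decay factor UPF1, an RNA helicase, averaged 149.2 ± 7.66 CPM in shVCAN and 203.7 ± 5.42 CPM in shGFP (log2 fold change −0.45, SE 0.0552, adjusted p = 9.68e-08). Its kinase SMG1 averaged 80.1 ± 2.28 CPM in shVCAN and 114.8 ± 6.50 CPM in shGFP, and SMG5 averaged 155.0 ± 11.4 CPM in shVCAN and 198.7 ± 2.60 CPM in shGFP. With the length and GC offset the log2 fold changes were −0.23 for UPF1, −0.35 for SMG1 (−0.52 without it) and −0.22 for SMG5 (−0.36 without it), all still called. Of the 10 UPF and SMG genes 6 fell and 4 were not called, a grouping made after the values were seen, with the offset 6 fell and 1 rose, and with library size alone 4 fell and 1 rose. MAGOHB, a subunit of the exon junction complex, rose to 21.6 ± 0.988 CPM in shVCAN against 12.9 ± 0.669 CPM in shGFP.

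Of 35 tested splicing regulators outside the members 3 rose, 17 fell and 15 were not called (median −0.168). The shares are 8.57% higher and 48.6% lower. They compare with 19.2% and 21.1% of all tested genes and with 27.2% and 36.3% of those of at least 50 CPM. The count of lower genes was 11 without shVCAN tumour 1 and also 11 without shGFP tumour 2. Scaling by library size alone gave 8 higher and 9 lower. SRRM2 and SON are scaffold proteins of nuclear speckles. SRRM2 averaged 433.9 ± 63.2 CPM in shVCAN and 616.5 ± 28.1 CPM in shGFP, and SON averaged 183.4 ± 5.40 CPM in shVCAN and 253.1 ± 10.2 CPM in shGFP. With the length and GC offset SRRM2 stood at a log2 fold change of −0.26 (−0.51 without it) and SON at −0.28 (−0.47 without it). KHSRP, a KH-domain protein that binds AU-rich RNA, averaged 304.3 ± 19.5 CPM in shVCAN and 411.9 ± 26.6 CPM in shGFP. CELF2, a paralog of CELF1, averaged 33.8 ± 1.21 CPM in shVCAN and 52.9 ± 6.62 CPM in shGFP, a ratio of 0.639.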

How the data were processed

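Tumour RNA was sequenced in paired ends (the labels' protocols). The values are unnormalised counts of reads, whole numbers by gene, as deposited, with versioned Ensembl identifiers. The submitters' processing notes name hg38 as build and STAR, Trim Galore and DESeq2 as tools. The counting program, annotation, strand setting and treatment of mouse reads were not given in the sources used here. Among 67071 rows, 45 were Y-chromosome duplicates of pseudoautosomal genes, all at 0 counts, and were left out. Symbols came from a table of gene names (all 41 members matched), and coordinates, exonic length, exon sequences and overlaps from GENCODE 29 on GRCh38.

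The test between groups was edgeR's quasi-likelihood F test (version 4.0.16, under R 4.3.3, with TMM scaling, filterByExpr, group as the only term, 16254 genes), with Benjamini-Hochberg adjustment over all tested genes. It was tested on simulated data. The SE is the size of the log2 fold change divided by the root of the F statistic. RPKM divides CPM by the union of annotated exons. Alternatives were other scalings and filters, DESeq2 1.42.0, limma-voom (limma 3.58.1), a replicate block, each tumour left out, an adjusted p under 0.01, a length and GC offset, and pseudogene counts added to the members. The members and lists were chosen with earlier results of these data known, so families are described by counts and medians without a test. Text names all PTBP genes, the 6 called members with the smallest p in each other family with its most abundant member, and the 4 called genes with the smallest p in each wider list. Every other member may be named with its call. Nothing says that tumours came from separate cell cultures, so p-values set the group difference only against the spread between these samples. Counting error alone does not cover amplification. The biological coefficient of variation, common to all genes, was 6.63%. The chi-square per gene ran from 3.45 to 6.61 for 2 libraries of a group and from 48.9 to 83.5 for 2 libraries of different groups.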

Additional observations from a re-analysis of the deposited data

How the results depend on the processing

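Of the 23 called members 12 were called in the same direction in all 16 other settings at an adjusted p under 0.05: PTBP1, PTBP2, PTBP3, HNRNPC, SRSF3, SRSF4, SRSF5, SRSF9, SRSF11, PCBP2, KHDRBS1 and RBFOX2. With library size alone 22 members rose and 5 fell (hnRNP 8 and 0, SR 7 higher, other regulators among the members 5 and 1), and family medians were 0.192 for all members, 0.472 for PTBP, 0.172 for hnRNP, 0.232 for SR and 0.164 for the other members. The same setting gave 8 higher and 9 lower among regulators outside the members and 31 and 3 in the core spliceosome. It gave 5 higher and 2 lower among SR kinases, phosphatases and importers and 7 higher and 4 lower in the decay list. Over all genes it gave 5228 higher and 1890 lower. It turned HNRNPA3 (0.11), HNRNPD (0.13), HNRNPK (0.052), HNRNPU (0.10), SRSF1 (0.10), SRSF2 (0.12), MBNL1 (0.13) and RBM39 (0.16) above 0. Upper quartile factors gave medians of 0.064 (all members), 0.045 (hnRNP) and 0.105 (SR), and log2 fold changes of 0.0057 for MBNL1 and 0.037 for RBM39. The length and GC offset gave 2 higher hnRNP genes and 5 lower SR genes, medians of 0.033 (hnRNP) and 0.036 (SR), and log2 fold changes of −0.016 for SRSF6, 0.0016 for MBNL1, −0.059 for MBNL2 and 0.083 for RBM39, and the split of member calls became 9 higher and 13 lower. RBM39 was also above 0 with DESeq2 size factors (0.00086), no filter (0.015), a filter of 1 CPM (0.00038) and the DESeq2 Wald test (0.00083). An adjusted p under 0.01 left 11 lower regulators outside the members and 3 higher decay genes. Leaving out 1 tumour gave 10 to 12 members higher and 10 lower, 2 to 4 hnRNP genes higher (2 without shVCAN tumour 3), 11 to 16 outside regulators lower, 2 to 5 decay genes higher (2 without shVCAN tumour 1, 3 without shGFP tumour 3) and a median of 0.001 to 0.043 for all members. Single uncalled members changed sign in such fits: HNRNPA2B1 (−0.0057 to 0.023), MBNL1 (−0.076 to 0.028), QKI (−0.017 to 0.062) and RBM39 (−0.031 to 0.028). The cause of these changes was not tested.

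With the replicate number as a block 12 members rose and 11 fell, the same 23 calls in the same directions. Same-numbered tumours did not deviate together across genes (correlations 0.0176, 0.0157 and −0.0271). With 3 tumours per group this cannot exclude a small shared effect, such as that of a batch.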
